A study of Mus musculus with 9 samples.

Results

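Interferon beta (Ifnb1) and 42 interferon-stimulated genes were followed in mouse bone-marrow-derived macrophages (BMDMs), which are primary macrophages grown from marrow in culture. The 43 genes were chosen by symbol, each had at least 1 row in the count table of 24061 gene symbols, and rows of the same symbol were summed. Cells came from C57BL/6J female mice of 8 to 10 weeks, were differentiated for 7 days in medium conditioned by L cells and were deprived of serum before treatment. The vehicle group (Veh) received DMSO. The LPS group received DMSO for 3 hr and then 10 ng/mL lipopolysaccharide (LPS), the bacterial ligand of Toll-like receptor 4 (TLR4), for 2 hr. The T0+LPS group received 500 nM T0901317 (T0), a synthetic agonist of the liver X receptors (LXRs), for 3 hr and then the same LPS with the agonist still present. Each group held 3 libraries of polyadenylated RNA, and per the study's methods each is a separately differentiated culture. There was no group with T0 alone, and the hour at which Veh cells were harvested is not given in the sources used here. In bulk RNA, fewer cells that express a gene and less RNA per cell cannot be told apart.

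Macrophages make interferon beta when TLR4 signals through the adaptor TRIF (Ticam1) and the kinases TBK1 and IKKε to the transcription factor IRF3. Secreted interferon beta binds the receptor IFNAR on the same and neighbouring cells, and JAK1 and TYK2 then activate a complex of STAT and IRF proteins. This complex binds the interferon-stimulated response element (ISRE) and switches on antiviral and antibacterial genes, many of which are also bound by IRF and NF-κB factors directly. LXRs are nuclear receptors for oxysterols that activate cholesterol efflux genes. The comparisons asked how far each gene of this program moved after 2 hr of LPS, and whether T0 given before LPS changed that level.

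The DNA just upstream of the genes is where these factors bind, so it is shown for 8 members that span the range of responses described below. RefSeq starts in the GRCm38.p6 build were matched for 30 of the 43 members, to within 200 bases of the end of a counted row, and the 250 bases before each start were read 5′ to 3′ on the gene's strand. Capitals mark the letters GAAANNGAA of the ISRE core, where N is any base, or the NF-κB consensus known as the kB consensus, on either strand. Ifnb1 is the ligand, Gbp5, Cxcl10 and Ifi205 rose over 4-fold with LPS from low levels in Veh, as did Isg15 and Ifit1 from higher ones, and Ifit3 and Oas3 were not called.
Ifnb1 (chr4:88522795-88523044, minus strand): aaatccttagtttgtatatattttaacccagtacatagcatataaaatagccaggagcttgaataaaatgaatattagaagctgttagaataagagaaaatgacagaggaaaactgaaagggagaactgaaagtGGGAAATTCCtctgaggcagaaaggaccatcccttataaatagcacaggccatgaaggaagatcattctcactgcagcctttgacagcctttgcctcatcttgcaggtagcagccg
Cxcl10 (chr5:92348890-92349139, minus strand): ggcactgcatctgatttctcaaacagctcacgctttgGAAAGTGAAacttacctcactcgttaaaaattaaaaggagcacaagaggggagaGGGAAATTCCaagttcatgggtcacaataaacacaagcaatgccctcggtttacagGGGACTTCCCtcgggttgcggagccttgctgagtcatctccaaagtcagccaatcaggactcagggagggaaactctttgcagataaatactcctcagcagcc
Gbp5 (chr3:142496684-142496933, plus strand): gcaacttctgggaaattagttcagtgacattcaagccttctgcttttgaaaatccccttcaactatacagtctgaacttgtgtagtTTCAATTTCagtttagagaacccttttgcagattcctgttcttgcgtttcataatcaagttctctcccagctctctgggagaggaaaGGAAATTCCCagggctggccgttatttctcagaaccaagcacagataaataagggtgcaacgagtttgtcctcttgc
Ifi205 (chr1:174031756-174032005, minus strand): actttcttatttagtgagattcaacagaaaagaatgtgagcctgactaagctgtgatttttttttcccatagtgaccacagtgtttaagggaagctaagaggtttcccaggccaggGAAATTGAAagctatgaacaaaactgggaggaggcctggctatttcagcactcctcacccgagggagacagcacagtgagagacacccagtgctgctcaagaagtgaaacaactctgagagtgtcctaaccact
Isg15 (chr4:156200819-156201068, minus strand): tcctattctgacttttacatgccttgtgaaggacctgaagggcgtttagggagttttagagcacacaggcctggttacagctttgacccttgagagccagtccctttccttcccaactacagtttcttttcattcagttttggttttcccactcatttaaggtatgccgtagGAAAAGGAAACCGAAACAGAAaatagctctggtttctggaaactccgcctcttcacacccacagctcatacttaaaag
Ifit1 (chr19:34640639-34640888, plus strand): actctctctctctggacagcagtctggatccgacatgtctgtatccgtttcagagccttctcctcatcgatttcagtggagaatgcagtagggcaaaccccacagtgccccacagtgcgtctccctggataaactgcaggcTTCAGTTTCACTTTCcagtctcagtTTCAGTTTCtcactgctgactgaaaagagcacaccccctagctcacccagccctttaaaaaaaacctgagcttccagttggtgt
Ifit3 (chr19:34583279-34583528, plus strand): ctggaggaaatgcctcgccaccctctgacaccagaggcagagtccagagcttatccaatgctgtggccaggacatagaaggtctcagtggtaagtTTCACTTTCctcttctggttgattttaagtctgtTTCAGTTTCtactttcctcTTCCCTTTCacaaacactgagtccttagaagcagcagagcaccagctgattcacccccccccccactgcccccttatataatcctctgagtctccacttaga
Oas3 (chr5:120777660-120777909, minus strand): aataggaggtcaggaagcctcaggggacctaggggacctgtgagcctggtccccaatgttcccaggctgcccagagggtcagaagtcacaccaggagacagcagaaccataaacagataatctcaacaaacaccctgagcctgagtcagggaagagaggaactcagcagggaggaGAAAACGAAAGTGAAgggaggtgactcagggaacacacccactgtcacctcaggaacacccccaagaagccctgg
In these windows Ifnb1 held 1 kB match, 107 bases before its start, and no ISRE core. Cxcl10 held 1 ISRE core and 2 kB matches, and Gbp5 held 1 of each. Ifi205 held 1 ISRE core. Isg15 held 3 ISRE cores that overlap each other, Ifit1 held 3, Ifit3 held 3 and Oas3 held 2, with no kB match in these 4. The ISRE core was present in 17 of the 30 windows (56.7%), against 7.13% of 32851 RefSeq windows of the same length. The kB consensus was present in 5 of 30 (16.7%), against 3.90% of all windows. Among the 14 windows of members that LPS raised over 2-fold, 64.3% held an ISRE core and 28.6% a kB match. Among the 13 windows of the other members tested, the shares were 46.2% and 7.69%. The DR4 element that LXR binds, searched without mismatches, was found in 0 of 30 windows and in 0.0152% of all windows. So strict a search is too rarely met for 30 windows to be informative, and the 0 does not bear on LXR binding at these genes. A match is a string of letters and not a measured binding site, and the ISRE core is contained in longer IRF motifs. An exact search also misses sites that differ from the string in a letter or in spacing. A window without an ISRE core, as for Ifnb1, is therefore not shown to lack sites for IRF factors.

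The count table could not measure every member equally. Reads on bases shared by several transcript rows were not counted, and 11 members have several rows. Cxcl11, Gbp7 and Mx2 had 19, 18 and 9 unshared bases and 0 reads in all 9 libraries, so their levels are unknown. Ifih1, Gbp3, Mx1, Ifi47, Xaf1 and Iigp1 were read on 147 to 463 unshared bases, and their levels in CPM therefore understate them. Tgtp1 has the near-identical copy Tgtp2 and at most 0.487 CPM in any library. Parp9 and Dtx3l lie on opposite strands and overlap, and no strand setting of the counting is stated. Counted reads per library ranged from 13299044 to 16467983. Levels below are TMM-scaled counts relative to library size (CPM), in which 1 read is worth 0.0535 to 0.0793 CPM. TMM factors correct for library composition and did not go below 1.14 in Veh or above 0.948 in LPS and T0+LPS. In all, 6 of the 7 macrophage markers in the table were detected, with a summed level of 25900 to 28200 CPM in Veh, 29300 to 30400 in LPS and 31700 to 33200 in T0+LPS. Most of that sum is Lyz2. Fcgr1 stood at 107, 146 and 129 CPM in Veh, 63.0, 78.2 and 71.3 CPM in LPS and 81.7, 107 and 78.3 CPM in T0+LPS. Mertk stood at 60.4 to 61.9 CPM in Veh, 34.0 to 36.1 CPM in LPS and 70.0 to 76.9 CPM in T0+LPS. The part of these marker shifts in the results below was not tested. Itgam, which shares its bases among rows, was listed at 0. Of 29 markers of other cell types, 23 had at most 3 counts in every library. The summed level of all 29 was 1.82 to 2.43 CPM in Veh, 5.94 to 6.99 in LPS and 4.85 to 5.94 in T0+LPS. The 6 with more counts were S100a8, Camp, Ngp, Zbtb46, Xcr1 and Col1a1, at up to 2.84 CPM. Conventional dendritic cell markers summed to 0.232 to 0.529 CPM in Veh, 2.24 to 2.91 in LPS and 1.87 to 2.99 in T0+LPS. Neutrophil markers summed to 1.28 to 1.97, 2.93 to 3.93 and 2.30 to 2.82 CPM. The part of these shifts in the results below was not tested either. The markers of plasmacytoid dendritic cells, which are strong interferon producers, summed to at most 0.0772 CPM.

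Replicate 1 was low for most of these genes in each group, and most so in Veh. Over the 31 members with a mean of at least 5 CPM, Veh replicate 1 was the lowest Veh library for 31 of 31, with a median of -0.40 log2 units from the Veh mean, whereas it was the lowest for 29.3% of 7299 genes at that level. Veh replicate 2 was the highest for 23 of 31. LPS replicate 1 was lowest for 20 and LPS replicate 2 highest for 20. Among the 12 of these members that LPS raised over 2-fold, LPS replicate 1 was lowest for only 5. It was highest for 3 of the 12, which were Gbp2, Gbp5 and Ifi205. T0+LPS replicate 1 was lowest for 22 and T0+LPS replicate 2 highest for 27. By median deviation too, replicate 1 was the lowest library and replicate 2 the highest in each group. Results are given with and without Veh replicate 1 where it bears on a call.

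**Figure D1:**
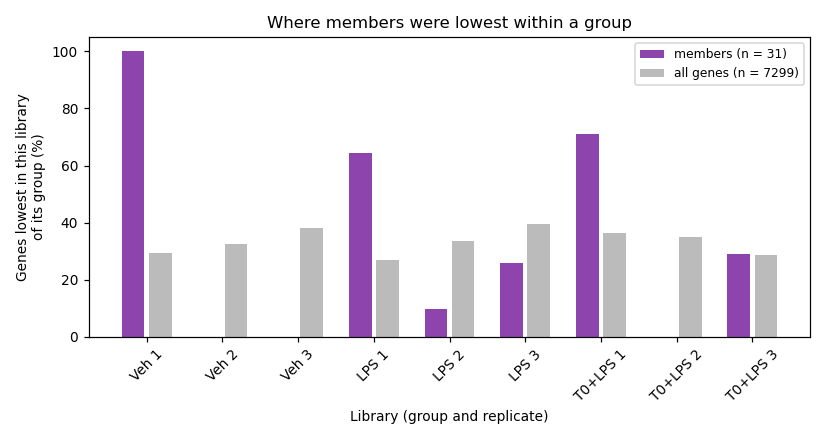
Percent of genes for which each library (horizontal axis) was the lowest of the 3 in its group, for the members (purple) and all genes (grey) with a mean of at least 5 CPM. Veh replicate 1 reaches 100% for the members and 29.3% for all genes.

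LPS raised interferon beta, the CXCR3 chemokines, guanylate-binding proteins and many antiviral effectors within 2 hr, while most oligoadenylate synthetases and some RNA sensors were not called higher. By edgeR's quasi-likelihood test, 36 members passed the filter on low counts, 26 were higher in LPS than in Veh and 1, Oas2, was lower at an adjusted p under 0.05. Among all 9559 genes tested, 32.9% were called higher and 31.2% lower. Of the 26, 16 were over 2-fold higher, against 8.11% of all genes, and 13 were over 4-fold higher, against 3.78%. The LPS libraries lay above all Veh libraries for 24 members, a pattern seen in 33.6% of genes. The median log2 fold change was 0.69 over the 36 members and -0.0019 over all genes. Of the 36, 4 (Ifnb1, Cxcl9, Gbp3 and Ifi205) passed the filter only through their LPS level, so these summaries describe the tested members and not all 43. Without Veh replicate 1, 23 members were called higher and 3 lower.

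**Figure D2:**
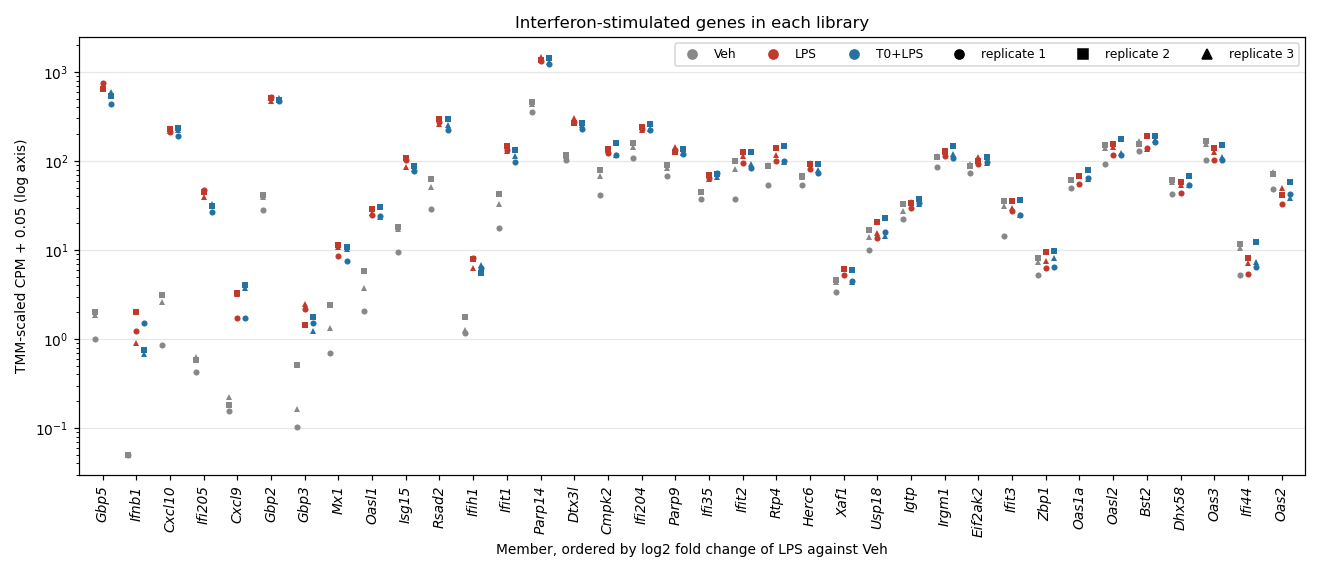
Level of each of the 36 tested members (TMM-scaled CPM plus 0.05, log axis) in the 9 libraries, with Veh in grey, LPS in red and T0+LPS in blue and a symbol for each replicate number. Members are ordered by the log2 fold change of LPS against Veh, from Gbp5 at 8.81 to Oas2 at -0.64.

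Ifnb1, the ligand that starts the program, lies in mm10 at chr4:88522025-88522794 on the minus strand and was at 0 reads in all 3 Veh libraries. It reached 1.19, 1.97 and 0.849 CPM in the LPS libraries, which are 15, 27 and 11 reads. Against 3 counts per Veh library, the limit that a count of 0 allows, this is at least 7.52-fold higher (adjusted p = 5.5e-06). The chemokines Cxcl9 (chr5:92321331-92328079) and Cxcl10 (chr5:92346639-92348889), neighbours on the minus strand, attract activated T cells through CXCR3. Cxcl10 stood at 0.802, 3.04 and 2.55 CPM in Veh and at 209, 231 and 216 CPM in LPS, a log2 fold change of 6.73 ± 0.15 (SE, adjusted p = 6.1e-16). Cxcl9 had 2, 2 and 3 reads in Veh and 21, 44 and 41 in LPS, a ratio of 19.7 with a 95% counting interval of 9.23 to 50.1. For these 3 genes every LPS library exceeded every Veh library, and Cxcl10 was far more abundant than Cxcl9 on the scale of CPM per kilobase of unshared exon, at 199 against 0.922 in LPS.

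The guanylate-binding proteins (GBPs) are interferon-induced GTPases that coat bacterial and parasite compartments, and Gbp5 also promotes inflammasome assembly. Gbp5 (chr3:142496934-142522344, plus strand) rose most of the tested members, from 0.962, 1.98 and 1.80 CPM in Veh to 754, 639 and 706 CPM in LPS, a log2 fold change of 8.81 ± 0.11 (SE, adjusted p = 1e-18). Gbp2 stood at 27.9, 41.8 and 39.4 CPM in Veh and rose to 530, 503 and 477 CPM in LPS (3.80 ± 0.10, adjusted p = 4.3e-15). Gbp3, measured on 333 bases, rose from at most 0.463 CPM in Veh to between 1.38 and 2.39 CPM. The related immunity-related GTPases (IRGs) act on vacuoles too, and only 2 of the 5 members could be tested. Irgm1 went from 84.7, 111 and 112 CPM to 114, 128 and 126 CPM (0.26 ± 0.08, adjusted p = 0.013), and Igtp from 22.3, 32.7 and 27.6 CPM to between 30.0 and 34.4 CPM (0.26 ± 0.11, adjusted p = 0.041). Both calls were lost without Veh replicate 1 (adjusted p = 0.064 and 0.25), and both were also lost without LPS replicate 2 (adjusted p = 0.053 and 0.12). Igtp was lost without Veh replicate 3 (0.084) or LPS replicate 3 (0.12) and by DESeq2 (0.067) as well. Ifi47, a further IRG below the filter, had 4 reads in Veh and 41 in LPS, a ratio of 13.3 with a counting interval of 4.83 to 51.2. Iigp1 and Tgtp1 had too few reads to test.

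The IFI200 proteins carry DNA-binding HIN domains. Ifi205 (chr1:174011998-174031755, minus strand) rose from 0.374, 0.529 and 0.579 CPM in Veh to 46.7, 44.3 and 39.8 CPM in LPS (6.46 ± 0.15, adjusted p = 9e-16). Ifi204, a sensor of cytosolic DNA, was already at 109, 158 and 145 CPM in Veh and reached 229, 239 and 225 CPM (0.76 ± 0.09, adjusted p = 2.2e-06). Both genes thus separated Veh from LPS completely, from starting levels of 0.306 and 59.8 CPM per kilobase.

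The IFIT proteins recognise foreign RNA, and the 3 members diverged. Ifit1 rose from 17.7, 42.2 and 32.9 CPM to 131, 147 and 129 CPM (2.15 ± 0.17, adjusted p = 1.4e-08). Ifit2 rose less, from 36.9, 101 and 80.3 CPM to 93.9, 125 and 115 CPM (0.63 ± 0.22, adjusted p = 0.019), and its groups overlapped. That call was lost without LPS replicate 2 (adjusted p = 0.063), by DESeq2 (adjusted p = 0.25) and with library totals in place of TMM factors (adjusted p = 0.17). Ifit3 was not called, with 14.5, 35.4 and 31.3 CPM in Veh and 27.3, 35.6 and 29.9 CPM in LPS (0.22 ± 0.21, adjusted p = 0.39). Without the filter on low counts Ifit3 was called higher (adjusted p = 0.031). Its near copy Ifit3b has no row under that symbol, and how reads that match both were treated is not given. The window of Ifit3 printed above holds as many ISRE cores as that of Ifit1.

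ISG15 is a ubiquitin-like modifier that HERC6 attaches in the mouse and USP18 removes. Isg15 rose from 9.41, 17.9 and 17.3 CPM to 101, 109 and 85.2 CPM (2.75 ± 0.15, adjusted p = 6.5e-11). Herc6 rose from 54.3, 67.5 and 66.0 CPM to 81.6, 93.2 and 95.4 CPM (0.53 ± 0.08, adjusted p = 1.4e-05). Usp18, which also restrains interferon receptor signalling, was not called at 0.31 ± 0.16 (adjusted p = 0.11), with overlapping groups. Without Veh replicate 2 or LPS replicate 1 it passed the threshold (adjusted p = 0.022 and 0.047). It also passed with the replicate number as a block (adjusted p = 0.016) and without the filter on low counts (adjusted p = 0.0099). Mx1 encodes a GTPase that blocks influenza virus, although the C57BL/6 allele is known to be defective. It rose from 0.641, 2.38 and 1.27 CPM to 8.48, 11.4 and 10.8 CPM (2.89 ± 0.26, adjusted p = 5e-08).

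The oligoadenylate synthetases (OAS) bind double-stranded RNA and activate RNase L. Among 5 measured members, only the catalytically inactive Oasl1, which represses Irf7 translation, was called higher with LPS in the main test. It rose from 2.03, 5.82 and 3.65 CPM to 24.4, 28.8 and 26.3 CPM (2.83 ± 0.19, adjusted p = 1.5e-09). Oas2 fell from 48.0, 71.0 and 74.6 CPM to 32.8, 41.1 and 49.3 CPM (-0.64 ± 0.14, adjusted p = 0.00092), although the highest LPS library lay above the lowest Veh library. Oasl2, the most abundant by its mean CPM over all 9 libraries, stood at 92.3, 153 and 141 CPM in Veh and 117, 153 and 144 CPM in LPS (0.11 ± 0.13, adjusted p = 0.50). Oas1a and Oas3 were not called either, at 0.17 ± 0.09 (adjusted p = 0.10) and -0.21 ± 0.13 (adjusted p = 0.18). Oas3 was called lower without Veh replicate 1 (-0.39, adjusted p = 0.00055), and Oas1a was called higher without LPS replicate 1 (adjusted p = 0.020). With the replicate number as a block, Oas1a was called higher and Oas3 lower (adjusted p = 0.022 and 0.012). The same held without the filter on low counts (adjusted p = 0.042 and 3.3e-05). These synthetases were therefore present before LPS at 48.0 to 166 CPM, apart from Oasl1. In the main test 4 of the 5 were not called higher with LPS.

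Rsad2 (viperin) and the adjacent Cmpk2 form an antiviral nucleotide pathway. Rsad2 rose from 28.7, 62.5 and 50.6 CPM to 276, 295 and 263 CPM (2.57 ± 0.16, adjusted p = 5.9e-10). Cmpk2 rose from 41.9, 79.2 and 67.2 CPM to 123, 137 and 132 CPM (1.07 ± 0.14, adjusted p = 5.6e-06). Isg20, an RNA exonuclease, was below the filter at 0.475 to 1.02 CPM in these 6 libraries. Of the sensors of nucleic acid, Ifih1 (MDA5) rose from 1.12, 1.72 and 1.22 CPM to 8.16, 7.93 and 6.25 CPM (2.48 ± 0.20, adjusted p = 1.3e-08). Eif2ak2 (PKR) moved from 73.7, 88.9 and 91.3 CPM to 92.3, 99.4 and 110 CPM (0.25 ± 0.08, adjusted p = 0.0081), which was lost without Veh replicate 1 and without LPS replicate 3 (adjusted p = 0.051 in each). Dhx58 (LGP2) and Zbp1 were not called, at -0.03 ± 0.12 and 0.20 ± 0.17. The 4 sensors therefore ranged from a rise of over 4-fold in Ifih1 to an uncalled estimate in Dhx58, whose 95% interval was -0.28 to 0.22. Dhx58 was called lower with library totals in place of TMM factors (-0.31, adjusted p = 0.029).

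Parp14, an ADP-ribosyltransferase, gave the most reads of all members and rose from 358, 463 and 433 CPM to 1332, 1350 and 1467 CPM (1.73 ± 0.07, adjusted p = 2.4e-12). Parp9 and the ubiquitin ligase Dtx3l, which form a complex, rose by 0.74 ± 0.08 and 1.36 ± 0.06 on the log2 scale (adjusted p = 6.4e-07 and 3.8e-12). All 3 separated Veh from LPS. Of the other members, Ifi35, Xaf1 and Rtp4 rose by 0.64, 0.51 and 0.63 on the log2 scale (adjusted p = 7.5e-07, 0.010 and 0.0011), and Xaf1 was lost without Veh replicate 1 (adjusted p = 0.062), by DESeq2 (adjusted p = 0.054) and with library totals (adjusted p = 0.21). Bst2 (tetherin), which holds budding virus at the cell surface, was high in all groups, at 129, 157 and 169 CPM in Veh and 141, 193 and 137 CPM in LPS (0.06 ± 0.11, adjusted p = 0.65). Ifi44 was not called at -0.39 ± 0.23 (adjusted p = 0.16) and was called lower without Veh replicate 1 (-0.69, adjusted p = 0.00086). It was also called lower with the replicate number as a block (adjusted p = 0.019) and without the filter on low counts (adjusted p = 0.0033).

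Scaling affects this comparison. With library totals in place of TMM factors, the median of all genes shifted to -0.28, the members' median to 0.41, and 21 members were called higher and 4 lower, which were Oas2, Oas3, Dhx58 and Ifi44. The calls lost were those of Ifit2, Xaf1, Eif2ak2, Irgm1 and Igtp. Under that scaling the estimates of Eif2ak2, Irgm1 and Igtp turned to -0.03, -0.02 and -0.02, and the uncalled Ifit3, Oas1a, Oasl2, Zbp1 and Bst2 also became negative. The 16 members over 2-fold were called higher under every scaling, filter, test and left-out library that was run.

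Per kilobase of unshared exon, the order of abundance changed with LPS. In Veh, Bst2 was highest among members with 1 row (198 CPM per kilobase), followed by Ifi204 (59.8), Parp14 (57.7) and Rtp4 (49.1). In LPS, Gbp5 (232), Gbp2 (207), Bst2 (205), Cxcl10 (199) and Parp14 (191) led, followed by Isg15 (130). In T0+LPS, Bst2 (229) and Gbp2 (201) stood above Cxcl10 (197), Parp14 (181) and Gbp5 (172).

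T0 before LPS lowered 2 members, Gbp5 and Ifi205, and no other member passed the main test, which does not pair replicates. With the replicate number as a block, Isg15 and Ifit1 were called lower as well. Of 38 members tested by edgeR, 0 were called higher and 2 lower, against 1.35% and 1.83% of 9348 genes. At an unadjusted p under 0.05, 5 members were lower and 0 higher, against 7.43% and 6.46% of genes. DESeq2 and limma-voom also called 0 higher. The median log2 fold change was -0.03 over the members and 0.0028 over all genes, with 22 estimates below 0 and 16 above. All 38 estimates lay within 1.5-fold of no change, and for 28 the 95% interval did too. These libraries share the LPS group with the comparison above, so the estimates of the 2 comparisons are not independent.

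**Figure D3:**
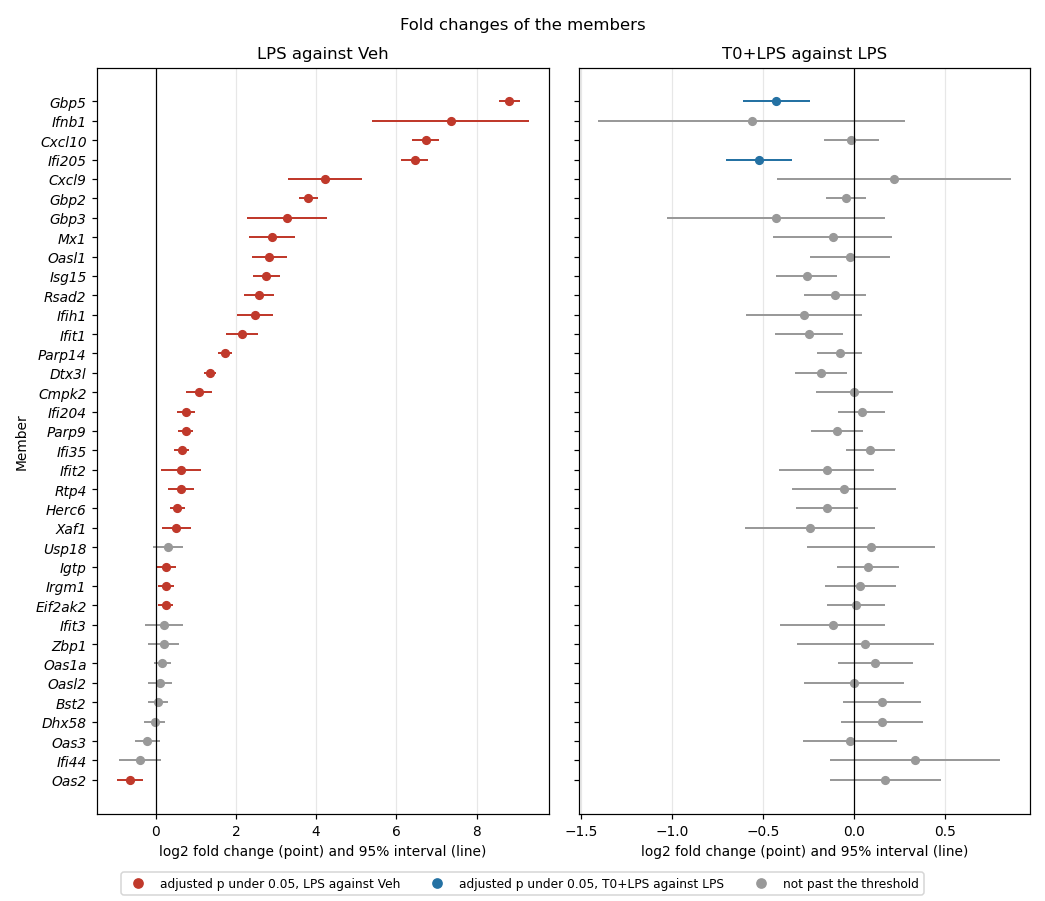
Log2 fold change (points) and 95% interval (lines) of the 36 members tested in both comparisons, for LPS against Veh (left) and T0+LPS against LPS (right, with a narrower axis). Coloured points passed an adjusted p of 0.05, and on the right these are Gbp5 at -0.43 and Ifi205 at -0.52; the left point of Ifnb1, with 0 reads in Veh, depends on the fit's prior count.

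Gbp5 fell from 754, 639 and 706 CPM in LPS to 438, 531 and 593 CPM in T0+LPS, with a log2 fold change of -0.43 ± 0.08 (SE, adjusted p = 0.0090). Ifi205 fell from 46.7, 44.3 and 39.8 CPM to 26.8, 31.3 and 32.9 CPM, a log2 fold change of -0.52 ± 0.08 (SE, adjusted p = 0.0021). For both genes all T0+LPS libraries lay below all LPS libraries, a pattern seen in 9.62% of genes. In both, replicate 1 was the highest LPS library and the lowest T0+LPS library. Ifi205 kept its call in all 9 other settings and 6 fits without a library. Gbp5 lost it without LPS replicate 1 (-0.37, adjusted p = 0.063) and by DESeq2 (-0.43, adjusted p = 0.059). Both genes stayed far above Veh with T0, where Gbp5 was at most 1.98 CPM and Ifi205 at most 0.579 CPM.

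A further 3 members were lower at an unadjusted p under 0.05 but not after adjustment. Isg15 was at 101, 109 and 85.2 CPM in LPS and 77.3, 87.6 and 82.1 CPM in T0+LPS (-0.26 ± 0.08, adjusted p = 0.096). Ifit1 was at 131, 147 and 129 CPM and 96.7, 132 and 114 CPM (-0.25 ± 0.09, adjusted p = 0.17). Dtx3l was at 277, 266 and 305 CPM and 226, 268 and 255 CPM (-0.18 ± 0.06, adjusted p = 0.19). In each of the 3 the groups overlapped. Isg15 passed the threshold without LPS replicate 3 (adjusted p = 0.0025) and Ifit1 without T0+LPS replicate 2 (adjusted p = 0.030). Without the filter on low counts all 3 passed it (adjusted p = 0.0017, 0.0017 and 0.031), and with the replicate number as a block Isg15 and Ifit1 did (adjusted p = 0.017 and 0.012).

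For interferon beta itself the reads were too few to set T0+LPS apart from LPS. Ifnb1 had 19, 10 and 9 reads in T0+LPS, or 1.45, 0.696 and 0.624 CPM, and the log2 fold change of -0.56 ± 0.39 had a 95% interval of -1.40 to 0.28 (adjusted p = 0.60). Cxcl10 was at 190, 236 and 224 CPM in T0+LPS against 209, 231 and 216 CPM in LPS, with an interval of -0.16 to 0.13 around the log2 fold change of -0.01 (adjusted p = 0.96). Cxcl9 had 22, 57 and 53 reads in T0+LPS (0.22 ± 0.30, adjusted p = 0.83). Within the GBP family, Gbp2 differed from Gbp5 in its estimate, at 470, 488 and 508 CPM in T0+LPS against 530, 503 and 477 CPM in LPS (-0.04 ± 0.05, adjusted p = 0.79); the difference between the 2 genes was not tested. Gbp3 had an estimate close to that of Gbp5 with a wide interval (-0.43 ± 0.28, adjusted p = 0.56). Ifi204 did not pass the test (0.04 ± 0.06, adjusted p = 0.83).

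The most abundant member of each other role, by its mean over all 9 libraries, also stayed uncalled with T0. Parp14 was at 1224, 1417 and 1290 CPM in T0+LPS (-0.08 ± 0.06, adjusted p = 0.61), Rsad2 at 225, 296 and 255 CPM (-0.10 ± 0.08, adjusted p = 0.63) and Herc6 at 74.1, 91.4 and 78.4 CPM (-0.15 ± 0.08, adjusted p = 0.43). Ifit2 was at 84.3, 125 and 91.6 CPM (-0.15 ± 0.12, adjusted p = 0.66) and Mx1 at 7.38, 10.7 and 10.2 CPM (-0.12 ± 0.15, adjusted p = 0.82). Oasl2 at 116, 176 and 122 CPM, Eif2ak2 at 97.1, 112 and 94.8 CPM and Irgm1 at 108, 148 and 120 CPM gave estimates of 0.0009, 0.01 and 0.03. Bst2 was at 165, 189 and 171 CPM (0.16 ± 0.10, adjusted p = 0.55) and was called higher without LPS replicate 2 (0.33, adjusted p = 0.0098). Oas2, which LPS lowered, was at 42.3, 57.7 and 38.8 CPM (0.17 ± 0.14, adjusted p = 0.67). In these 10 genes the T0+LPS and LPS libraries overlapped.

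Expressed against the rise from Veh to LPS, T0+LPS held 69.1% to 117% of that rise over the 16 members that LPS raised over 2-fold. These shares are a description only, since the 16 were chosen by their level in the same LPS libraries and 4 of them passed the filter only through it. The median share was 85.8% for the 16 and 88.6% for all 775 genes chosen in the same way. Gbp5 held 74.4% and Ifi205 69.2%, while Cxcl10 held 99.0%, Gbp2 96.8% and Cmpk2 100%. Ifnb1 at 69.1% and Cxcl9 at 117% mark the ends of the range, and both rest on few reads.

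**Figure D4:**
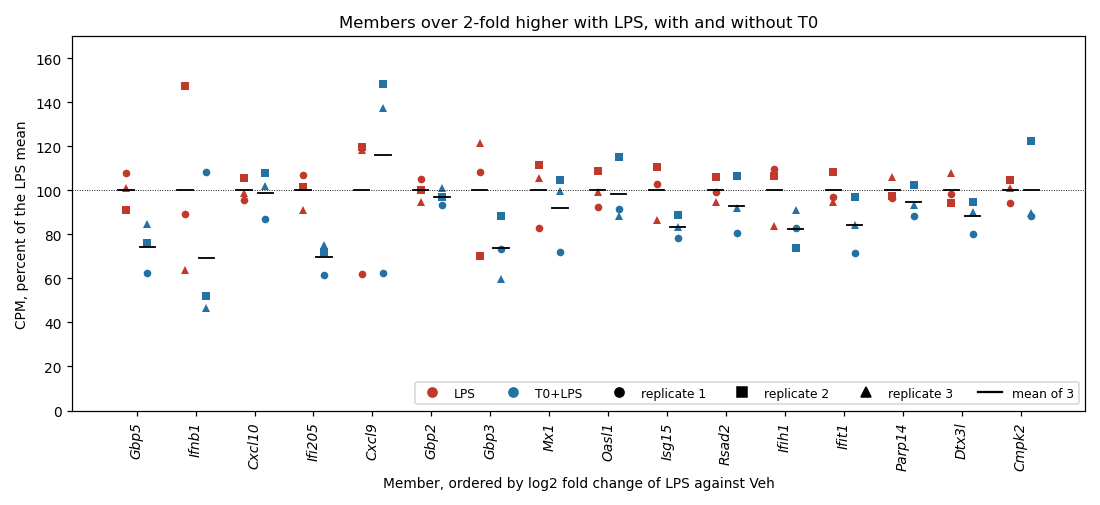
CPM of the 16 members over 2-fold higher with LPS, as percent of the mean of the LPS libraries, in LPS (red) and T0+LPS (blue), with a symbol for each replicate number and a black bar at the mean of 3. The blue points of Gbp5 and Ifi205 lie below all red points of the same gene.

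Upstream of interferon beta, 13 genes from the LPS receptor to the Ifnb1 promoter were followed. LPS raised 7 of the 10 tested and lowered 0 by edgeR, against 32.9% and 31.2% of all genes, and the median log2 fold change was 0.99. Of the 10, Traf3 and Irf3 did not pass the filter in the Veh libraries alone, so the count and the median describe the tested genes. The largest changes were in the adaptor Tank, from at most 2.09 CPM in Veh to 11.3, 9.68 and 8.57 CPM (2.43 ± 0.17, adjusted p = 2.7e-09), and the adaptor Traf3, from 0.535, 0.860 and 0.811 CPM to 3.17, 2.40 and 3.63 CPM (2.07 ± 0.27, adjusted p = 4.3e-06). Both were read on few unshared bases. Ikbke, which encodes IKKε, rose from 144, 150 and 159 CPM to 582, 574 and 612 CPM (1.97 ± 0.05, adjusted p = 1.7e-15). With T0, 0 of 9 were called by edgeR, DESeq2 or limma-voom, where edgeR called 1.35% of genes higher and 1.83% lower, and Ikbke alone had an unadjusted p under 0.05, at 660, 627 and 626 CPM (0.11 ± 0.05, adjusted p = 0.26).

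Downstream of interferon beta, 16 genes of the receptors, kinases, STATs, IRFs and feedback inhibitors were followed, of which 12 could be tested. Irf7, Irf9 and Tyk2 had 0 to 229 unshared bases and less than 1 CPM, so these 3 could not be measured. LPS raised 9 and lowered 2, Irf8 and Irf2, against 32.9% and 31.2% of all genes, with a median of 0.98. Of the 12, Jak2 and Socs3 passed the filter only through their LPS level. Socs3, a feedback inhibitor of JAK signalling, rose from 0.428, 0.926 and 0.753 CPM to 659, 600 and 614 CPM (9.82 ± 0.10, adjusted p = 7.4e-20). Jak2 had 6 reads in Veh and 53 in LPS, a ratio of 11.5 with a counting interval of 4.94 to 32.7. Irf1, a transcription factor that binds many of these promoters, rose from 0.748, 0.793 and 0.869 CPM to 6.50, 6.70 and 5.56 CPM (2.95 ± 0.20, adjusted p = 1.7e-09). The median with T0 was -0.12, and T0 raised 1 gene and lowered 1, against 1.35% and 1.83% of all genes.

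Irf8, an IRF of the myeloid lineage, was at 432, 446 and 430 CPM in Veh, 177, 171 and 167 CPM in LPS and 254, 254 and 260 CPM in T0+LPS. It fell with LPS (-1.34 ± 0.04, adjusted p = 5.7e-14) and was higher in T0+LPS than in LPS (0.58 ± 0.05, adjusted p = 1.2e-06), with no overlap in either comparison. Socs3 was at 423, 490 and 521 CPM in T0+LPS, below all LPS libraries (-0.39 ± 0.06, adjusted p = 0.0025). Irf1 was at 3.81, 3.97 and 4.85 CPM (-0.57 ± 0.16, adjusted p = 0.072). The IFNAR subunits, singled out after their values were seen, lay close to the threshold. Ifnar1 went from 548, 507 and 528 CPM in LPS to 450, 443 and 493 CPM (-0.19 ± 0.05, adjusted p = 0.053), and Ifnar2 from 131, 125 and 121 CPM to 109, 112 and 112 CPM (-0.18 ± 0.05, adjusted p = 0.059). For Irf1, Ifnar1 and Ifnar2 all T0+LPS libraries lay below all LPS libraries, a pattern seen in 9.62% of genes. Ifnar1 was called lower in 6 of 9 other settings, DESeq2 and limma-voom among them, and in 2 of 6 fits without a library. Ifnar2 was called lower in 2 of the 9 settings and 1 of the 6 fits, and Irf1 in 2 and 0. The other receptor subunits of the list went the other way without passing the test. Ifngr1 went from 744, 737 and 747 CPM in LPS to 827, 782 and 842 CPM in T0+LPS (0.14 ± 0.04, adjusted p = 0.12). Ifngr2 went from 352, 359 and 359 CPM to 383, 376 and 375 CPM (0.09 ± 0.04, adjusted p = 0.40). For both, all T0+LPS libraries lay above all LPS libraries, as for 889 of 9348 genes.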

How the data were processed

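RNA was measured in 9 libraries, 3 each for Veh, LPS and T0+LPS, grouped by their sample titles. The authors deposited raw read counts per RefSeq transcript, made by cutadapt trimming, HISAT2 alignment to the transcriptome of mm10 and featureCounts. Tables that hold only the authors' own comparisons were not used. Counts were summed per symbol, filtered with filterByExpr over the 2 groups compared and tested with the quasi-likelihood test of edgeR 4.0.16 (R 4.3.3) with TMM factors and Benjamini-Hochberg adjustment over all genes at 0.05. Standard errors follow from the log2 fold change and its F statistic. p-values measure the spread between cultures, and counting intervals (95%) and limits of 3 counts cover counting error only. DESeq2 1.42.0, limma-voom (limma 3.58.1), other scalings, filters and units, a replicate block and fits without each library were alternatives. The test was checked on simulated counts. The members, gene lists and tests were chosen with earlier results of these data known. Genes with values in every library are Ifnb1, the CXCR3 chemokines, the most abundant member of each role, the members called with T0 or lowered by LPS, the 3 largest and 3 smallest changes called with LPS, and in each pathway list those called with T0 and the 3 largest LPS changes. Others were added after their values were seen.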

Additional observations from a re-analysis of the deposited data

How the results depend on the processing

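Counts of members called with LPS ranged from 23 to 29 higher and from 1 to 3 lower when a library was left out. Members called lower were 4 under library totals, and 3 without the filter on low counts, under the replicate block and without Veh replicate 1. Library totals moved the members' median to 0.41, the genes of the whole table to 1696 higher and 5408 lower, and the LPS receptor list to 1 lower, which was also its highest count with a library left out (0 to 1). With T0, members called lower were 5 without the filter, 4 under the replicate block and 1 by DESeq2, and 1 to 3 with a library left out (1 without LPS replicate 1), while those called higher were 0 to 1. Genes of the whole table were then 225 higher and 285 lower without the filter, and 59 to 167 higher and 82 to 191 lower with a library left out. The members' median ranged from -0.16 to 0.036. The JAK-STAT list had 2 genes called lower under library totals, DESeq2, limma-voom, the block and the most counted row, 3 without the filter, 4 in a fit of all 9 libraries and at an adjusted p under 0.10, and 1 to 2 with a library left out. The near copies had 2 called lower without the filter and under the block. The cause of these shifts was not tested.

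Signs turned as follows, and of these estimates those of Eif2ak2, Irgm1 and Igtp with LPS had been called. Library totals gave, with LPS, Ifit3 -0.067, Oas1a -0.12, Oasl2 -0.17, Eif2ak2 -0.029, Zbp1 -0.084, Irgm1 -0.022, Igtp -0.019 and Bst2 -0.22. With T0, Oasl2 and Cmpk2 gave -0.0045 and -0.0018 under library totals, -0.016 and -0.012 by limma-voom, and -0.013 and -0.0091 under the block. With a library left out, the LPS estimates ranged from -0.10 to 0.45 (Ifit3), -0.088 to 0.25 (Oasl2), -0.18 to 0.078 (Dhx58) and -0.13 to 0.14 (Bst2). The T0 estimates ranged from -0.023 to 0.51 (Cxcl9), -0.079 to 0.073 (Cxcl10), -0.12 to 0.28 (Usp18), -0.23 to 0.029 (Mx1), -0.0051 to 0.19 (Oas1a), -0.018 to 0.32 (Oas2), -0.21 to 0.081 (Oas3), -0.15 to 0.051 (Oasl1), -0.21 to 0.11 (Oasl2), -0.16 to 0.085 (Cmpk2), -0.064 to 0.083 (Eif2ak2), -0.10 to 0.24 (Zbp1), -0.10 to 0.13 (Irgm1), -0.026 to 0.087 (Ifi204) and -0.27 to 0.072 (Rtp4).

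The main fits did not treat the replicate numbers as pairs. Deviations of same-numbered libraries correlated at 0.04, 0.02 and -0.03 between Veh and LPS and at 0.06, -0.04 and 0.01 between LPS and T0+LPS over all genes tested. Over the 38 members the latter were 0.54, 0.19 and 0.23, and LPS replicate 3 correlated best with T0+LPS replicate 2 (0.52). A correlation across genes leaves out a shift shared by all of them. By median deviation over the members with a mean of at least 5 CPM, replicate 1 was lowest and replicate 2 highest in each group. Whether the numbers mark paired cultures was not tested. With the replicate number as a block, 28 members were called higher and 3 lower with LPS, and 4 lower with T0, with Ifit1 (adjusted p = 0.012) and Isg15 (adjusted p = 0.017) added to Gbp5 and Ifi205. For 28 of the 38 members the T0 interval lay within 1.5-fold, and Ifnb1, Cxcl9, Gbp3, Ifi47 and Isg20, with few reads, were among those for which it did not.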

Other observations

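Other interferon genes had few or no counted reads. Of 20 further interferon ligands in the table, 17 were at 0 in all 9 libraries and 19 had at most 3 counts in every library. Ifnk, an interferon known from keratinocytes, reached 4 counts in its highest library. None passed the filter on low counts. Each has 570 to 1462 unshared bases in the table. Unshared bases reflect overlap in position and not similarity of sequence. How reads that match several interferon genes were treated is not given in the sources used here.

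Near copies of the members were followed as well. Of 22 in the table, 11 were tested by edgeR, and LPS raised 6 and lowered 2, against 32.9% and 31.2% of all genes, with a median log2 fold change of 0.74. Mnda, a relative of Ifi204, rose from 13.4, 22.7 and 20.0 CPM in Veh to 175, 167 and 164 CPM in LPS (3.19 ± 0.11 SE, adjusted p = 1.7e-13). Ifi203, of the same family, rose from 1.76, 1.92 and 2.03 CPM to 16.2, 14.6 and 17.5 CPM (3.08 ± 0.14, adjusted p = 6.2e-12), and Gbp6 rose from 0.748, 1.39 and 1.74 CPM to 7.69, 8.52 and 7.72 CPM (2.64 ± 0.21, adjusted p = 1.5e-08). The 2 that LPS lowered were Oas1c (-1.08 ± 0.17, adjusted p = 4.4e-05) and Gbp9 (-0.59 ± 0.14, adjusted p = 0.0014).

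With T0 the median of the near copies was -0.13, and 1 of 11 was called, lower, against 1.83% of all genes. Mndal, another IFI200 gene, was at 213, 207 and 219 CPM in LPS and 165, 176 and 171 CPM in T0+LPS (-0.32 ± 0.05, adjusted p = 0.0012). Ifi203 (7.84, 13.8 and 12.3 CPM in T0+LPS, -0.50 ± 0.15, adjusted p = 0.11) and Mnda (140, 157 and 161 CPM, -0.14 ± 0.06, adjusted p = 0.24) also lay below all LPS libraries, as did 9.62% of genes, without passing the test. The treatment of reads that match several IFI200 genes is not given in the sources used here.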
